A study of Mus musculus with 12 samples.

Results

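Creatine kinase and adenine nucleotide transfer genes carry phosphate energy from the mitochondria of a heart muscle cell to the sites that spend ATP. The set held 7 genes, Ckm, Ckmt2, Ckb, Slc6a8, Slc25a4, Slc25a5 and Ak1, taken by their symbols from the 19308 genes of the count table, and all 7 were found there and passed the filter on low counts. Total RNA of 12 hearts from C57BL/6 mice was sequenced; the hearts were collected 1 week after surgery performed at 8 weeks of age. WT mice and Fabp3-null mice (F3-KO, a global CRISPR-Cas9 knockout of the heart-type fatty acid binding protein) underwent transverse aortic constriction (TAC), in which a ligature tied against a 27-gauge needle narrows the aortic arch and overloads the left ventricle, or a sham operation. The 4 groups, WT sham, F3-KO sham, WT TAC and F3-KO TAC, held 3 hearts each. The knockout removed the gene from every tissue, so no result below is specific to heart muscle cells.

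In the heart, the adenine nucleotide translocases exchange ATP made in the mitochondrial matrix for ADP from the cytosol. Mitochondrial creatine kinase in the intermembrane space uses that ATP to phosphorylate creatine, phosphocreatine diffuses to the myofibrils and ion pumps, and cytosolic creatine kinase there turns it back into ATP. Creatine itself is not made by heart muscle in quantity and is imported by a sodium-dependent transporter, while adenylate kinase recovers ATP and AMP from pairs of ADP molecules. A fall in creatine kinase activity and a shift from the muscle to the brain isoform are known from overloaded and failing hearts.

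Promoter windows of GRCm38.p6 from RefSeq, 250 bases before to 50 bases after the annotated start, were found for 6 of the 7 genes. The muscle and brain cytosolic creatine kinase genes are shown because their products do the same reaction in the same compartment while their RNA levels lay far apart. Capitals mark the letters TATAA, searched on both strands, and each sequence is written 5′ to 3′ on the strand of the gene. The Ckm window is chr7:19410844-19411143 on the plus strand and the Ckb window is chr12:111672289-111672588 on the minus strand.
Ckm: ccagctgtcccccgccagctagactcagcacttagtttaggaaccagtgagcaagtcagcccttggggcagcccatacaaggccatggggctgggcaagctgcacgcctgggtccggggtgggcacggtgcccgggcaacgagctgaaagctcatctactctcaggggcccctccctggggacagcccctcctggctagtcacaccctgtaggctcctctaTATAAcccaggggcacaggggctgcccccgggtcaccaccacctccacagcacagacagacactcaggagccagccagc
Ckb: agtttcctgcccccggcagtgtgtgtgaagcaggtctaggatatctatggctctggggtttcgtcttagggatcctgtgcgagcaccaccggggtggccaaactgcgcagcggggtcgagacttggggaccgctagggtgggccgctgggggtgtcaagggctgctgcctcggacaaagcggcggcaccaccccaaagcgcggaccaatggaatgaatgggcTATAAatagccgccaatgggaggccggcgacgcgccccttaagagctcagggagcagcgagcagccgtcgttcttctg
The match began 29 bases before the start of Ckm and 28 bases before that of Ckb, and 24.9% of 32851 windows of this length held one. The letters CCAAT, found in 37.4% of windows, occurred 2 times in the Ckb window and 0 times in that of Ckm. The E-box letters CANNTG, found in 72.3% of windows, occurred 1 time in the Ckm window and 0 times in that of Ckb. The translocase genes Slc25a4 and Slc25a5 held TATAA 5 and 26 bases after their annotated starts. These are matches of letters within 300 bases, and no protein binding was measured.

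The libraries held 10424289 to 14371981 rounded counts, and the 7 genes took 0.785% to 1.34% of them. Fabp3 checked the labels. Its mean was 2466 ± 367 counts per 1000000 counts (CPM; SD, n = 3) in the WT sham group and 2952 ± 97.4 in the WT TAC group, against 1065 ± 24.4 in F3-KO sham hearts and 1053 ± 78.0 in F3-KO TAC hearts. It therefore fell to 0.432-fold of WT after sham (adjusted p = 0.00784, edgeR) and to 0.357-fold after TAC (adjusted p = 0.00146, edgeR), and was not at 0 in the F3-KO hearts. Skeletal muscle markers summed to 2.88 to 6.75 CPM in all groups against 64361 to 106285 CPM for cardiomyocyte markers. Here and below, sums of markers were scaled by library totals alone. Several hearts stood apart from their group. Myh7, the slow myosin of fetal and overloaded ventricles, stood at 21580 CPM in WT TAC heart 3, 23126 in F3-KO TAC heart 3 and 9179 in WT sham heart 2, and between 174 and 8073 in the other hearts. The matrix genes Col1a1, Col1a2, Col3a1 and Postn were lower in WT TAC heart 3 and F3-KO TAC heart 3 than in the other hearts of their groups, and F3-KO TAC heart 2 had the highest Col1a1 and Postn in the series, at 1529 and 1221 CPM. Other fibroblast markers ran differently: Dcn was highest of its group in WT TAC heart 3 (1079 CPM against 908 and 548), and Pdgfra was highest of its group in F3-KO TAC heart 3 (65.0 CPM against 51.1 and 58.1). Several of the fitted changes and medians that move with these hearts are also given without them below, and others are given with all hearts only. In tissue RNA, fewer cells of a type and less RNA per cell cannot be told apart.

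None of the 7 genes passed an adjusted p of 0.05 in any of the 7 comparisons tested by edgeR, so their values are described below and not called changed. DESeq2 called 2 values, Ckm for TAC in F3-KO hearts and Ckb for the mean genotype effect, and limma-trend called 0. Over all 14094 genes tested the share called was 0% for TAC against sham in WT hearts, 0% for TAC against sham in F3-KO hearts, 0.106% for F3-KO against WT after sham, 0.078% for F3-KO against WT after TAC, 0% for the difference between the genotype effects, 0.078% for TAC averaged over both genotypes and 0.412% for genotype averaged over both surgeries. The intervals were wide enough to hold sizable changes: a gene with the spread of Slc25a4 had a 95% interval of its TAC effect in WT hearts from 0.636-fold to 1.56-fold, while that of Slc25a5 ran from 0.879-fold to 1.25-fold. The widest differences between groups were in Ckb, Ckm and Slc6a8, and these are taken up with the other members of their roles.

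**Figure D1:**
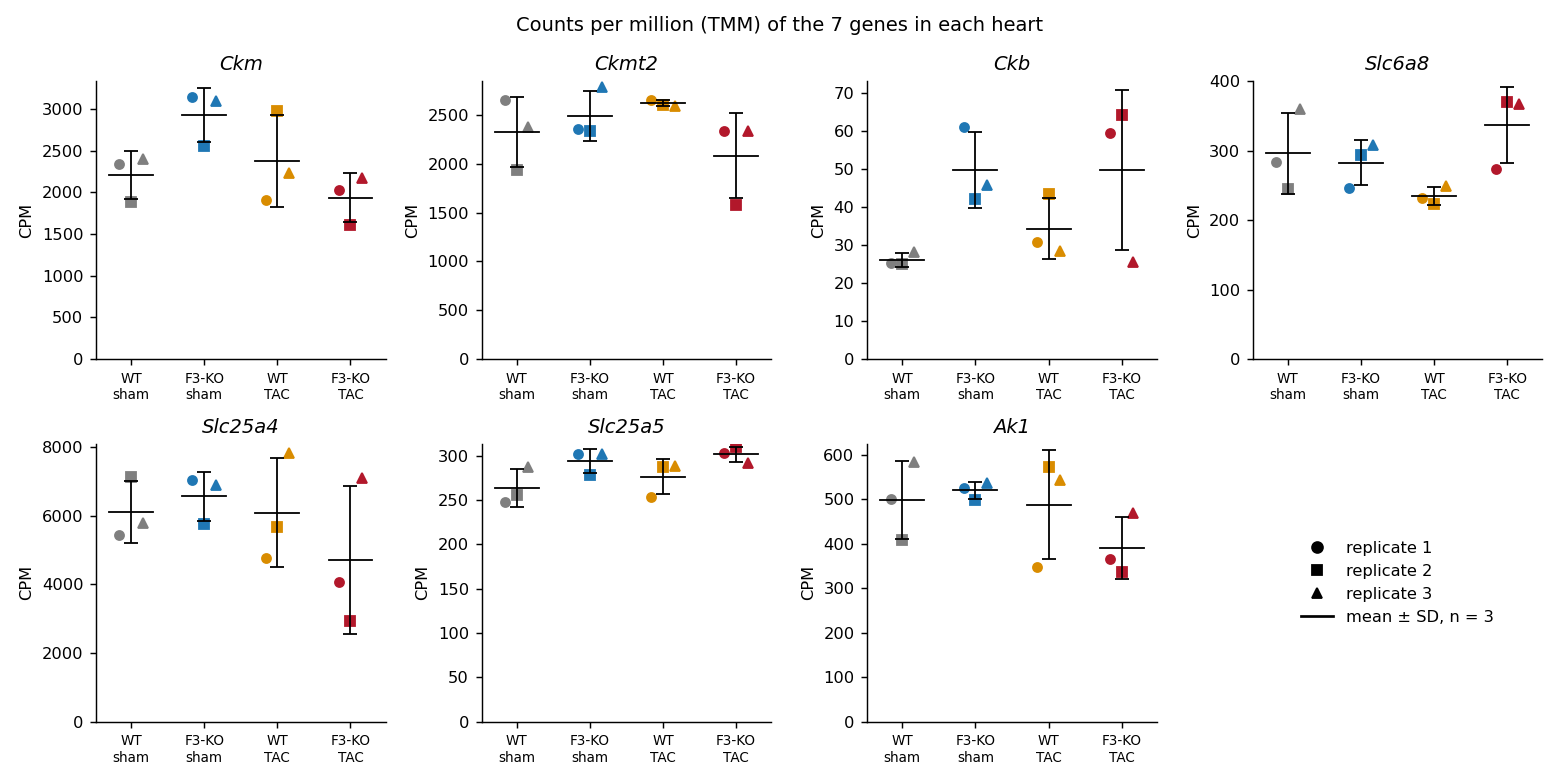
CPM (vertical axes, linear from 0) of the 7 genes in each of the 12 hearts by group, with replicates as circles, squares and triangles, and the group mean and SD (n = 3) in black. Ckb lay between 24.9 and 28.1 CPM in the WT sham hearts and between 42.1 and 61.1 CPM in the F3-KO sham hearts, and Slc25a4 spread from 2930 to 7113 CPM among the F3-KO TAC hearts.

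Levels per length separated the dominant from the minor isoforms. In WT sham hearts, dividing CPM by the length of the annotated transcript gave Slc25a4 3179 ± 468 CPM per kilobase (SD, n = 3), Ckmt2 1565 ± 242, Ckm 804 ± 104, Ak1 239 ± 42.1, Slc25a5 213 ± 17.1, Slc6a8 74.7 ± 14.7 and Ckb 17.7 ± 1.19. In that group only the ranges of Ak1 and Slc25a5 overlapped between neighbours. The place of Ckm rests on the transcript chosen: the RefSeq-matched Ckm transcript of GENCODE is 2742 bases long, and with the shorter one of 1235 bases the Ckm level would be 1786 CPM per kilobase, above Ckmt2. With the shortest coding transcript of each gene no other pair of means changed places. Slc25a4, Ckmt2, Ckm, Slc6a8 and Ckb kept their places in this order in all 4 groups. In F3-KO TAC hearts Slc25a5, at 236 to 249.5 CPM per kilobase, lay above Ak1, at 162 to 225.4, without overlap, and there the ranges of Slc25a4 and Ckmt2 overlapped.

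Slc25a4 encodes the translocase isoform of heart and skeletal muscle (ANT1). It stood at 5432, 7139 and 5789 CPM in the WT sham hearts, 7036, 5749 and 6905 in the F3-KO sham hearts, 4768, 5681 and 7835 in the WT TAC hearts, with 4072, 2930 and 7113 for F3-KO TAC. All groups overlapped, and the third heart of each TAC group was the highest of its group. The fitted log2 fold change for TAC was -0.0060 (SE 0.30) in WT hearts and -0.48 (SE 0.30) in F3-KO hearts, where the adjusted p was 0.433 (edgeR). Without F3-KO TAC heart 3 the F3-KO value was -0.91 with an adjusted p of 0.0535 (edgeR), and without F3-KO TAC heart 2 it was -0.24. F3-KO TAC hearts had a log2 difference of -0.37 (SE 0.30) from WT TAC hearts, which ranged from -0.80 without F3-KO TAC heart 3 to -0.13 without F3-KO TAC heart 2.

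Slc25a5 encodes the translocase isoform of most dividing and non-muscle tissues (ANT2). It varied least of the set, with 248, 256 and 288 CPM in the WT sham hearts, 302, 278 and 302 in the F3-KO sham hearts, 253, 287 and 288 in the WT TAC hearts, with 303, 309 and 292 for F3-KO TAC. The highest heart exceeded the lowest by 1.25-fold, against 2.67-fold for Slc25a4. Every F3-KO TAC heart lay above every WT TAC heart, by a log2 fold change of 0.13 (SE 0.12, adjusted p = 0.710, edgeR). Its counts were not whole in 6 of 12 hearts, as estimated counts are when reads are divided among like sequences, and processed copies of this gene are common, so its level is less certain than that of Slc25a4.

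The ratio of the translocase isoforms within a heart was highest in F3-KO TAC hearts 1 and 2. For every 100 Slc25a4 counts there were 4.56, 3.58 and 4.97 Slc25a5 counts in the WT sham hearts, 4.29, 4.84 and 4.37 in the F3-KO sham hearts, 5.31, 5.05 and 3.68 in the WT TAC hearts, with 7.43, 10.6 and 4.11 for F3-KO TAC. The first and second F3-KO TAC hearts were above every other heart, and the third lay within the sham range. The F3-KO TAC and WT TAC groups overlapped. Of the fibroblast markers, Col1a1 stood at 656, 1529 and 103 CPM in the F3-KO TAC hearts, whereas Dcn stood at 730, 1080 and 1025 CPM and Pdgfra at 51.1, 58.1 and 65.0 CPM. The part of the matrix genes in the ratio was not tested.

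**Figure D2:**
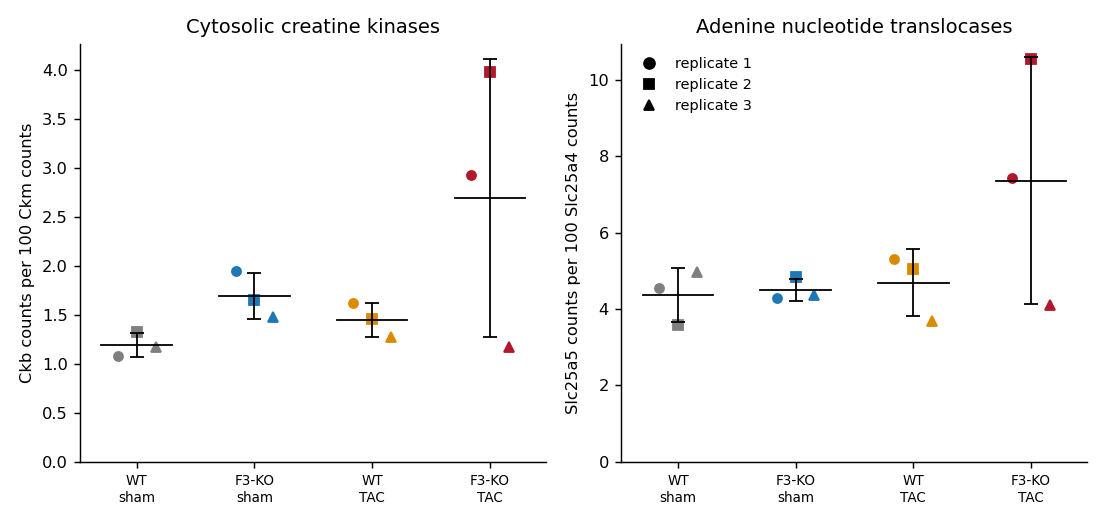
Ckb counts per 100 Ckm counts (left) and Slc25a5 counts per 100 Slc25a4 counts (right) in each heart by group, on linear axes from 0, with the group mean and SD (n = 3) in black. F3-KO TAC hearts 1 and 2 stand above all other hearts in both panels, at 2.93 and 3.98 on the left and 7.43 and 10.6 on the right, and heart 3 of that group lies at 1.17 and 4.11.

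Ckmt2, the sarcomeric mitochondrial creatine kinase, showed the narrowest WT TAC group of the abundant genes. It stood at 2652, 1941 and 2382 CPM in the WT sham hearts, 2358, 2334 and 2787 in the F3-KO sham hearts, 2656, 2607 and 2596 in the WT TAC hearts, with 2333, 1578 and 2339 for F3-KO TAC. Every F3-KO TAC heart lay below every WT TAC heart. The log2 fold change between these groups was -0.33 (SE 0.19, adjusted p = 0.559, edgeR) and was -0.18 without F3-KO TAC heart 2, the lowest of the series. The other mitochondrial form, Ckmt1, which is expressed outside striated muscle, did not pass the filter and reached at most 2.17 CPM.

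Ckm encodes the muscle cytosolic creatine kinase, bound in part to the M line of the sarcomere. It stood at 2336, 1878 and 2401 CPM in the WT sham hearts and 3138, 2553 and 3092 in the F3-KO sham hearts, without overlap, a log2 fold change of 0.41 (SE 0.20, adjusted p = 0.883, edgeR). After TAC it stood at 1910, 2981 and 2238 CPM in the WT hearts and 2028, 1613 and 2171 in the F3-KO hearts, where the ranges overlapped. Every F3-KO TAC heart lay below every F3-KO sham heart. That contrast gave a log2 fold change of -0.60 (SE 0.20), or 0.662-fold with a 95% interval from 0.488 to 0.896, at an unadjusted p of 0.0118 and an adjusted p of 0.192 by edgeR. Leaving out single hearts gave values from -0.70 to -0.49, the latter without F3-KO TAC heart 2, and the lowest adjusted p was 0.0840, without F3-KO TAC heart 3 (edgeR). By DESeq2 the same contrast passed with an adjusted p of 0.0428, where 3.15% of genes were called. In WT hearts the TAC effect was 0.11 (SE 0.20), and the difference between the TAC effects of the genotypes was -0.70 (SE 0.28, unadjusted p = 0.0290, adjusted p = 0.954, edgeR). The summed cardiomyocyte markers also lay lower in F3-KO TAC hearts, at 64361 to 78384 CPM against 95188 to 100862 in F3-KO sham hearts, with 8 of 8 markers lower, 0 of them called by edgeR, 3 with unadjusted p-values up to 0.05 and 2 called by DESeq2. The summed erythroid markers lay at 366 to 979 CPM in F3-KO TAC hearts and 1070 to 4493 CPM in F3-KO sham hearts, with 5 of 5 lower. The part of either in the Ckm value was not tested.

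Ckb encodes the brain-type cytosolic creatine kinase, which the developing heart expresses and the adult heart keeps at a low level. It stood at 25.2, 24.9 and 28.1 CPM in the WT sham hearts and 61.1, 42.1 and 45.8 in the F3-KO sham hearts, and the lowest F3-KO heart lay clear of the highest WT heart. The log2 fold change was 0.93 (SE 0.29), or 1.91-fold with a 95% interval from 1.22 to 2.97, at an unadjusted p of 0.00811 and an adjusted p of 0.520 by edgeR. When only the 6 sham libraries were fitted, the adjusted p was 0.0498 (edgeR), in a fit that called 56 genes against 15 with all 12 hearts. After TAC it stood at 30.9, 43.4 and 28.4 CPM in the WT hearts, all above the WT sham hearts (log2 fold change 0.39, SE 0.29, adjusted p = 0.847, edgeR), and at 59.4, 64.2 and 25.5 in the F3-KO hearts. Of the F3-KO TAC hearts, the first and second held more Ckb than any WT heart and the third lay within the WT sham range.

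Averaged over both surgeries, F3-KO hearts had a Ckb log2 fold change of 0.73 (SE 0.21), or 1.66-fold with a 95% interval from 1.22 to 2.27, at an unadjusted p of 0.00394 and an adjusted p of 0.232 by edgeR. This was the lowest p of any member in any comparison. DESeq2 gave an adjusted p of 0.0448, where 1.54% of genes were called, and edgeR without F3-KO TAC heart 3 gave 0.89 with an adjusted p of 0.0108. Fibroblast markers stood beside Ckb as follows. For genotype after sham 6 of 8 were higher and 2 lower, with 0 called by edgeR or DESeq2 and 0 at unadjusted p-values up to 0.05. Over the 12 hearts the Pearson r of log2 CPM with Ckb was 0.69 for Col1a1, 0.64 for Col1a2, 0.68 for Col3a1, 0.66 for Postn and 0.66 for Lum, 0.36 for Tcf21, and -0.16 for both Dcn and Pdgfra, a description of libraries that share group and tissue composition. Whether RNA of other cell types contributed to the Ckb values was not tested. Counts of Ckb per 100 counts of Ckm were 1.08, 1.33 and 1.17 in the WT sham hearts, 1.95, 1.65 and 1.48 in the F3-KO sham hearts, 1.62, 1.46 and 1.27 in the WT TAC hearts, with 2.93, 3.98 and 1.17 for F3-KO TAC. The ratio of the F3-KO sham hearts lay above that of the WT sham hearts without overlap although Ckm was also higher there, and Ckb made up 0.562% to 1.97% of all creatine kinase counts in F3-KO TAC hearts.

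Slc6a8 encodes the creatine transporter of the plasma membrane. It stood at 284, 245 and 359 CPM in the WT sham hearts, 246, 294 and 309 in the F3-KO sham hearts, 232, 224 and 249 in the WT TAC hearts, with 273, 369 and 368 for F3-KO TAC. Every F3-KO TAC heart lay above every WT TAC heart, while the sham groups overlapped. The log2 fold change after TAC was 0.52 (SE 0.17), or 1.43-fold with a 95% interval from 1.10 to 1.86, at an unadjusted p of 0.0108 and an adjusted p of 0.459 by edgeR. It stayed between 0.44 and 0.64 when any single heart was left out. The TAC effect was -0.33 (SE 0.17) in WT hearts and 0.25 (SE 0.17) in F3-KO hearts, and their difference was 0.58 (SE 0.24, unadjusted p = 0.0333, adjusted p = 0.954, edgeR). Slc6a8 and Ckm thus had the lowest p-values of the set for this difference, with opposite signs.

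Ak1 encodes the main cytosolic adenylate kinase of muscle. It stood at 501, 409 and 585 CPM in the WT sham hearts, 526, 499 and 537 in the F3-KO sham hearts, 348, 573 and 544 in the WT TAC hearts, with 366, 337 and 470 for F3-KO TAC. Every F3-KO TAC heart lay below every F3-KO sham heart, with a log2 fold change of -0.41 (SE 0.21, adjusted p = 0.327, edgeR). In WT hearts the TAC effect was -0.029 (SE 0.21), and the first WT TAC heart was about as low as the F3-KO TAC hearts. Ak1 counts were not whole in 7 of 12 hearts.

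**Figure D3:**
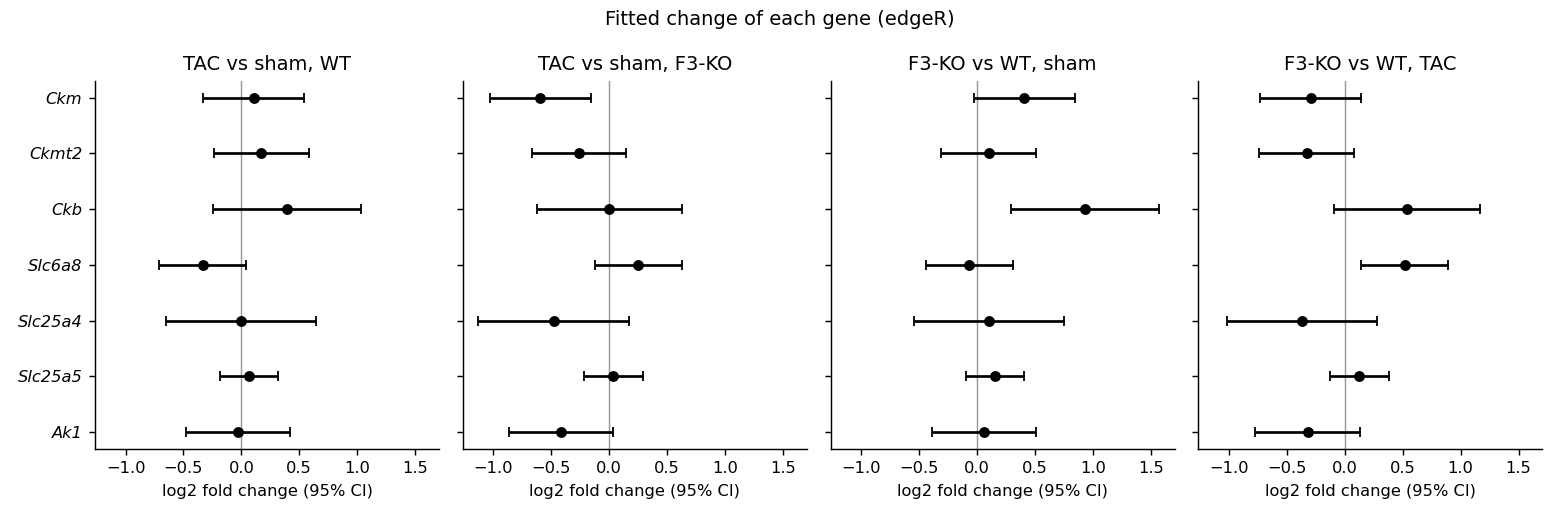
Fitted log2 fold change (horizontal axis; point) and 95% interval (bar) of each gene in the 4 comparisons between groups, from the edgeR model of all 12 hearts. The intervals that exclude 0 are those of Ckm for TAC in F3-KO hearts (-0.60), Ckb for genotype after sham (0.93) and Slc6a8 for genotype after TAC (0.52), and no gene passed after adjustment over all genes.

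The counts of members can be set beside those of all genes. An unadjusted p of at most 0.05 was reached by 0 of the 7 genes for TAC in WT hearts, against 6.28% of all genes, by 1 for TAC in F3-KO hearts, against 17.1%, by 1 for genotype after sham, against 6.02%, and by 1 for genotype after TAC, against 10%. For the difference between the genotype effects it was 2 against 4.48%, for the mean TAC effect 0 against 17.8%, and for the mean genotype effect 1 against 10.1%. Groups did not overlap for 1 of the 7 genes for TAC in WT hearts, with 9.1% of all genes, for 2 for TAC in F3-KO hearts, with 22.9%, for 2 for genotype after sham, with 13.7%, and for 3 for genotype after TAC, with 11.4%. The median log2 fold change of the members was 0.067 for TAC in WT hearts and -0.26 for TAC in F3-KO hearts, where the medians of all genes were 0 and 0.022. It was 0.10 for genotype after sham and -0.29 for genotype after TAC, beside -0.0041 and 0.022 for all genes. Without F3-KO TAC heart 2 the medians for TAC in F3-KO hearts and for genotype after TAC were -0.24 and -0.13, and without F3-KO TAC heart 3 they were -0.35 and -0.39. Without WT TAC heart 3 those for TAC in WT hearts and for genotype after TAC were 0.034 and -0.15, and without WT sham heart 2 the median for TAC in WT hearts was 0.044. Without that sham heart the median for genotype after sham was 0.13, with 4 of the 7 genes higher, where 6 were higher with all hearts. The comparisons share groups of hearts, so these medians are not independent of each other.

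F3-KO TAC heart 2 had the lowest value of the series for Ckm, Ckmt2, Slc25a4 and Ak1, and the highest for Ckb, Slc6a8 and Slc25a5. The same heart had the highest Nppa, the atrial natriuretic peptide gene that rises under load, at 3841 CPM, with 37.1 to 1114 CPM in the other hearts. Of the other load markers, Acta1 was also highest there (3566 CPM, beside 3564 in F3-KO TAC heart 1). Nppb, at 647 CPM, lay below WT TAC heart 1 (776), and Myh7, at 8073, below F3-KO TAC heart 3 (23126). Summed atrial markers were highest there too, at 26.9 CPM, with 1.98 to 6.51 CPM in the other TAC hearts. F3-KO sham heart 2 came next in that sum, with Nppa at 145 CPM. The part of atrial tissue in the Nppa value was not tested. Over the 12 hearts, Slc25a4 and Col1a1 had a Pearson r of -0.89 in log2 CPM, -0.78 without F3-KO TAC heart 2 and -0.89 without F3-KO TAC heart 3. With the other fibroblast markers Slc25a4 had an r of -0.89 for Col1a2, -0.87 for Col3a1, -0.85 for Postn, -0.75 for Lum, -0.29 for Tcf21, -0.17 for Pdgfra and -0.10 for Dcn. Over the same list with Col1a1, r ran from -0.81 (Col1a2) to -0.61 (Dcn) for Ak1 and from -0.74 (Pdgfra) to -0.38 (Col3a1) for Ckm. For Ckmt2 it ran from -0.52 (Tcf21) to -0.35 (Col3a1), and that with Col1a1 was 0.14 without F3-KO TAC heart 2. It ran from -0.18 (Tcf21) to 0.12 (Postn) for Slc6a8 and from -0.098 (Pdgfra) to 0.40 (Lum) for Slc25a5. Ckm and Myh6, the fast adult myosin of the ventricle, had an r of 0.82, and 0.67 within groups. With Myh6, r was 0.69 for Ckmt2, 0.65 for Ak1 and 0.26 for Slc25a4 (-0.28 within groups). It was 0.11 for Ckb, -0.078 for Slc25a5 and -0.28 for Slc6a8. Of the cardiomyocyte list only Myh6 was set against the members in this way. These are descriptions over 12 libraries that share surgery, genotype and the makeup of the tissue.

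**Figure D4:**
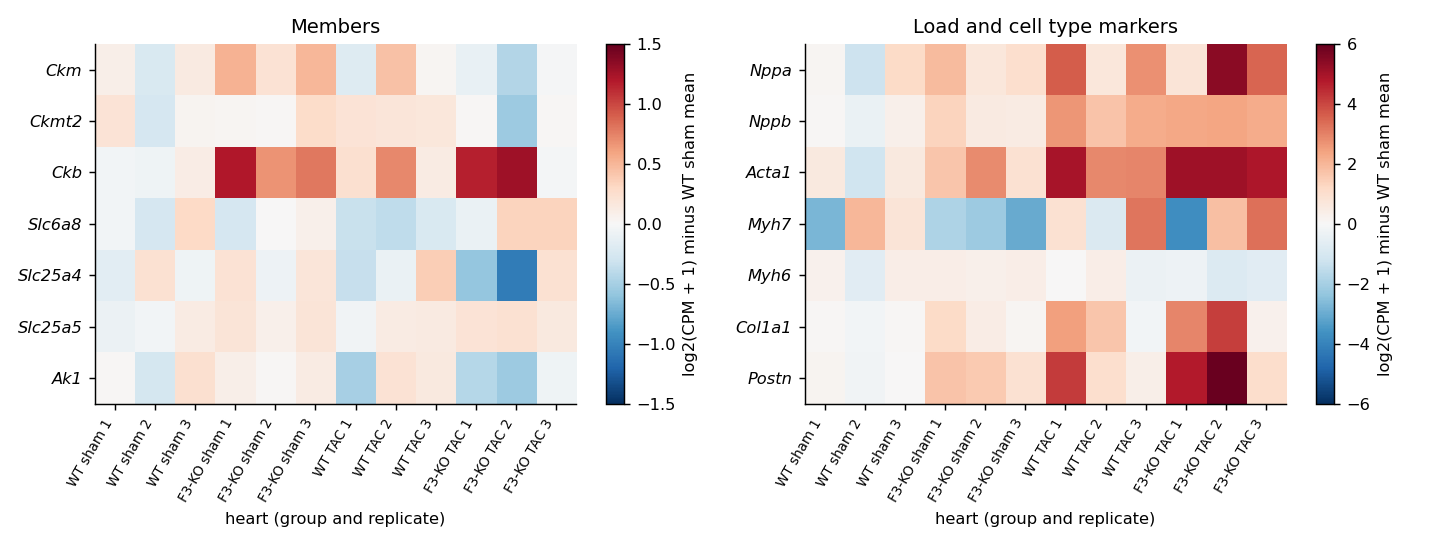
Colour gives log2(CPM + 1) minus the mean of the WT sham hearts for the 7 members (left) and for load and cell type markers (right), with 1 column for each heart; the colour scales of the panels differ. F3-KO TAC heart 2 combines the lowest Slc25a4 (2930 CPM) with the highest Col1a1 (1529 CPM) and Postn (1221 CPM), and F3-KO TAC heart 3 combines Slc25a4 of 7113 CPM with Col1a1 of 103 CPM.

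Among the members, the closest pair over the 12 hearts was Ckm and Ak1, with a Pearson r of 0.82 in log2 CPM. Ckb and Slc25a4 had an r of -0.52, and -0.70 within groups. The gene most like each member, among 9371 genes with a mean of at least 10 CPM, was Pfkm (muscle phosphofructokinase) for Ak1 with r = 0.97, Atp5c1 (a subunit of ATP synthase) for Slc25a4 with 0.95, C1qbp (a mitochondrial matrix protein) for Ckm with 0.95, Dusp3 (a protein phosphatase) for Ckb with 0.93, Iqsec2 for Ckmt2 with 0.92, Septin6 for Slc25a5 with 0.87, and Clip4 for Slc6a8 with 0.86. The next for Slc25a4 were the mitochondrial enzymes Hsd17b10 and Idh2, each at 0.95. The next for Ak1 were Dennd4b at 0.97 and Mfn2, a mitochondrial fusion protein, at 0.96. For Ckm they were Alad at 0.95 and Tmem177 at 0.94, and for Ckmt2 the mitochondrial ribosome gene Mrpl9 at 0.92 and the complex I gene Ndufa10 at 0.90. For Ckb they were Relb and Hacd1, both at 0.90, for Slc6a8 Arhgef6 at 0.86 and Samd4 at 0.83, and for Slc25a5 Shb at 0.85 and Itsn1 at 0.83. These are the top of many correlations over the same 12 libraries and are given as a description.

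A wider list of 42 genes of the same pathways, with mitochondrial carriers and porins, creatine synthesis, other adenylate and nucleoside diphosphate kinases, the purine nucleotide cycle, AMP-activated protein kinase subunits and the ATP synthase inhibitor, had 34 genes that were tested and 8 that did not pass the filter. None of the 34 was called in any of the 7 comparisons by edgeR. DESeq2 called 2 for TAC in F3-KO hearts, Slc25a42 and the phosphate carrier gene Slc25a3, where 3.15% of all genes were called, and 1 for genotype after sham, Atpif1, where 0.746% of all genes were called. It called 1 for the mean TAC effect and 0 in the other comparisons, where it called 0.192% of all genes for TAC in WT hearts, 0.717% for genotype after TAC and 0.0426% for the difference between the genotype effects. Slc25a3 is named here after its values were seen. Unadjusted p-values of at most 0.05 went to 2 genes that were higher and 0 that were lower for TAC in WT hearts (6.28% of all genes), and to 2 higher and 9 lower for TAC in F3-KO hearts (17.1%). They went to 2 higher and 1 lower for genotype after sham (6.02%), and to 2 higher and 5 lower for genotype after TAC (10%). For the difference between the genotype effects it was 1 higher and 3 lower (4.48%), for the mean TAC effect 3 higher and 5 lower (17.8%), and for the mean genotype effect 5 higher and 3 lower (10.1%). The median log2 fold change of the 34 genes was -0.044 for TAC in WT hearts, with 20 lower, -0.14 for TAC in F3-KO hearts, with 22 lower, 0.16 for genotype after sham, with 25 higher, and -0.013 for genotype after TAC, with 19 lower. It was -0.20 for the difference between the genotype effects, with 23 lower, -0.098 for the mean TAC effect, with 22 lower, and 0.077 for the mean genotype effect, with 20 higher.

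The lowest p for the mean TAC effect belonged to Slc25a42, the mitochondrial carrier of coenzyme A and adenine nucleotides. It stood at 109, 81.1 and 126 CPM in the WT sham hearts, 97.6, 99.9 and 102 in the F3-KO sham hearts, 70.7, 97.0 and 74.1 in the WT TAC hearts, with 62.9, 43.9 and 66.6 for F3-KO TAC. Its mean TAC effect was -0.59 (SE 0.14, adjusted p = 0.104, edgeR), and DESeq2 called it with an adjusted p of 0.00463, where 4.66% of genes were called. Next came Prkab1, a regulatory subunit of AMP-activated protein kinase, at -0.33 (SE 0.10), its fellow subunits Prkag2 at 0.27 (SE 0.098) and Prkag1 at -0.32 (SE 0.12), and Ak4, a mitochondrial matrix adenylate kinase, at -0.49 (SE 0.19), with adjusted p-values from 0.157 to 0.214 (edgeR). The subunits of this kinase thus differed in sign.

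For the mean genotype effect the lowest p of the list belonged to Slc25a25, a calcium-regulated ATP-Mg and phosphate carrier of the mitochondria, at 0.58 (SE 0.18, adjusted p = 0.296, edgeR). It stood at 11.2, 11.6 and 9.08 CPM in the WT sham hearts, 18.5, 17.5 and 13.2 in the F3-KO sham hearts, 8.71, 12.8 and 9.40 in the WT TAC hearts, with 19.8, 15.3 and 9.24 for F3-KO TAC. As with Ckb, the third F3-KO TAC heart lay within the WT range. Adss, which acts in AMP synthesis, followed at 0.48 (SE 0.17, adjusted p = 0.338, edgeR), and Atpif1, the inhibitor of ATP synthase in reverse, at 0.26 (SE 0.095, adjusted p = 0.372, edgeR). Atpif1 stood at 143, 159.9 and 131 CPM in the WT sham hearts and at 172 to 232 CPM in every heart of the other 3 groups, so that the WT sham hearts lay apart from all the rest.

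**Figure D5:**
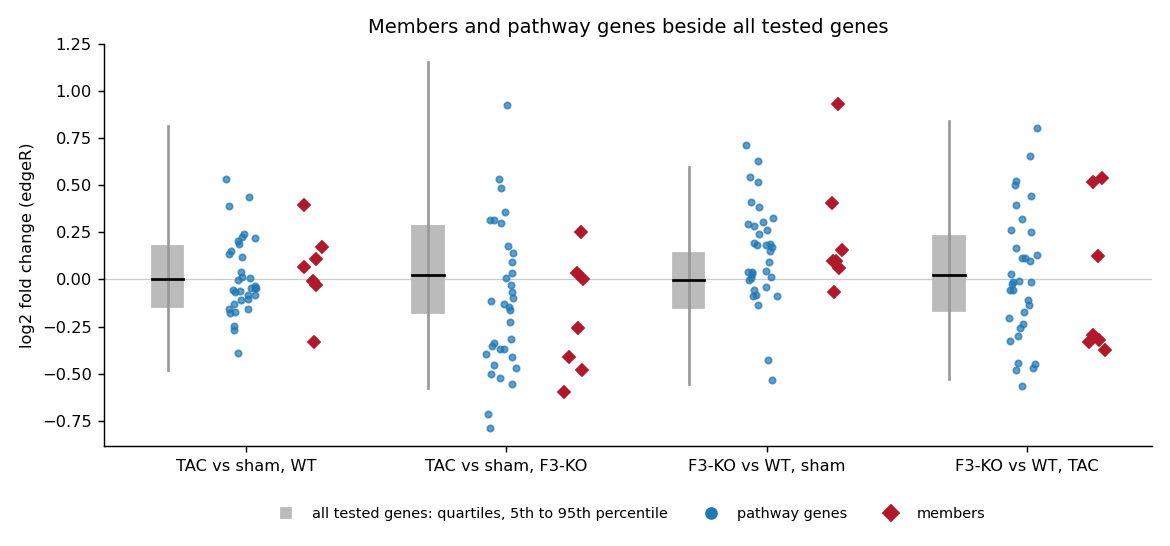
Log2 fold change (vertical axis, edgeR) in the 4 comparisons between groups for all 14094 tested genes (grey box from the lower to the upper quartile with the median, line from the 5th to the 95th percentile), the 34 tested pathway genes (circles) and the 7 members (diamonds). For TAC in F3-KO hearts the members' median is -0.26 and that of the pathway genes -0.14, beside 0.022 for all genes.

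Markers of the cell types in a heart were read in the same comparisons. For TAC 8 of 8 fibroblast markers were higher in both genotypes, with a median log2 fold change of 1.20 in WT hearts and 1.74 in F3-KO hearts, the latter 1.12 without F3-KO TAC heart 2 and 2.17 without F3-KO TAC heart 3. EdgeR called 0 in either genotype, with 4 and 5 genes at unadjusted p-values up to 0.05, DESeq2 called 0 and 1, and edgeR called 5 for TAC in F3-KO hearts once F3-KO TAC heart 3 was left out. Cardiomyocyte markers split into 4 higher and 4 lower for TAC in WT hearts, and 8 of 8 were lower for TAC in F3-KO hearts (median -0.46), of which edgeR called 0, with 3 at unadjusted p-values up to 0.05, and DESeq2 called 2. For TAC in WT hearts 6 of 8 were lower without WT sham heart 2 (median -0.21) and 5 of 8 without WT TAC heart 3 (-0.13). The median for TAC in F3-KO hearts was -0.37 without F3-KO TAC heart 2. Without F3-KO TAC heart 3 it was -0.69, with 7 of 8 lower and 6 at unadjusted p-values up to 0.05 (edgeR).

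For genotype after TAC 8 of 8 fibroblast markers were higher (median 1.15, and 0.47 without F3-KO TAC heart 2) and 7 of 8 cardiomyocyte markers lower (median -0.37), with 0 called by edgeR or DESeq2 and 1 and 2 genes at unadjusted p-values up to 0.05. Without F3-KO TAC heart 3 the fibroblast median was 1.59, and edgeR called 1. The cardiomyocyte median was -0.29 without F3-KO TAC heart 2 and -0.48 without F3-KO TAC heart 3. Without WT TAC heart 3 the fibroblast and cardiomyocyte medians were 0.83 and -0.27. For genotype after sham, the contrast of Ckm and Ckb, 6 of 8 fibroblast markers were higher (median 0.59) and 6 of 8 cardiomyocyte markers were higher (median 0.078). Without WT sham heart 2, 8 of 8 fibroblast markers were higher (median 0.63) and 5 of 8 cardiomyocyte markers (0.027). Of the load markers 3 of 4 were higher with all hearts (median 0.90). Unadjusted p-values up to 0.05 from edgeR went to 2 that were higher and 1 that was lower, and edgeR and DESeq2 called 0.

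Erythroid markers, which report blood left in the tissue, had the same signs as Ckm and Ckmt2 in the contrasts listed next. For TAC in F3-KO hearts 5 of 5 were lower (median -2.16), for genotype after sham 5 of 5 were higher (1.29), for genotype after TAC 5 of 5 were lower (-1.66) and for TAC in WT hearts 5 of 5 were higher (0.82). The difference between the genotype effects had 5 of 5 lower (-3.08). Neither edgeR nor DESeq2 called any of them, and unadjusted p-values up to 0.05 from edgeR went to 5, 0, 2, 0 and 5 of them in that order. The median for TAC in WT hearts was 0.50 without WT sham heart 2 and 1.32 without WT TAC heart 3. The other members did not share all of these signs. Slc6a8 had the opposite sign in every contrast listed (0.25, -0.066, 0.52, -0.33 and 0.58). Ckb and Slc25a5 did for TAC in F3-KO hearts (0.0018 and 0.037) and genotype after TAC (0.54 and 0.13). Slc25a4 and Ak1 did for TAC in WT hearts (-0.0060 and -0.029). For the mean TAC effect 5 of 5 were lower (-0.72), as were Ckm (-0.24) and Ckmt2 (-0.043). For the mean genotype effect 5 of 5 were lower (-0.28), where Ckm had 0.057 and Ckmt2 -0.11.

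Macrophage markers were higher in 7 of 7 genes for TAC in both genotypes, with medians of 0.76 in WT and 0.78 in F3-KO hearts, with 6 genes at unadjusted p-values up to 0.05 and 0 called by edgeR in each, and 0 and 1 called by DESeq2. For genotype after sham 6 of 7 were higher (median 0.25), and 7 of 7 without WT sham heart 2 (0.59, with 4 at unadjusted p-values up to 0.05 by edgeR). For genotype after TAC 7 of 7 were higher (0.29, and 0.15 without WT TAC heart 3). With all hearts 0 were called by edgeR or DESeq2 in either. The proliferation markers Mki67 and Top2a were higher for TAC, with medians of 2.77 in WT and 3.80 in F3-KO hearts, 1 and 2 genes at unadjusted p-values up to 0.05 and 0 called by edgeR or DESeq2, and their sum lay at 1.49 and 2.23 CPM in WT TAC heart 3 and F3-KO TAC heart 3 against 13.6 to 176 CPM in the other TAC hearts. Smooth muscle markers had medians of -0.031 and 0.43 for TAC in WT and F3-KO hearts and -0.32 for genotype after sham, where 4 of 4 were lower. For TAC in F3-KO hearts 4 of 4 were higher, with 0 called by edgeR and 1 by DESeq2. Endothelial markers had medians of 0.011 and 0.070 for TAC in WT and F3-KO hearts. The part of these cell types in the members' values was not tested.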

How the data were processed

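Total RNA of 12 hearts was sequenced. Per the labels and the study's methods, reads were filtered with SOAPnuke, and the submitters' processing notes name HISAT2 2.0.4, STAR 2.3.0, DESeq2 and the builds mm8 and mm9. The counting tool was not given in the sources used here. The values deposited by the authors are estimated counts per gene, not normalised, of which 40.6% were not whole; they were rounded. The count table of the series was used; for 1 heart its own table broke off, and for 11 it equalled the joint table. Groups followed the labels. The study describes the hearts of a group as biological replicates. After seeing the data, medians and correlations were also computed without single hearts.

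Genes were filtered with filterByExpr (minimum count 10; 14094 of 19308 kept), scaled by TMM and fitted in 1 model of 4 groups with edgeR 4.0.16 (glmQLFit, glmQLFTest; R 4.3.3), with Benjamini-Hochberg adjustment over all tested genes and calls under 0.05; limits of 95% are from this model. DESeq2 1.42.0 and limma 3.58.1 were alternatives. In simulated counts for genotype after TAC, 161 of 200 changed genes were recovered with 7 false calls among 13928 genes. The planted log2 changes were all larger than the largest fitted member effect there, 0.54 for Ckb. Recovery of changes of the members' size was therefore not measured. CPM used TMM. Transcript lengths are from GENCODE vM21, and 18225 gene identifiers were found in RefSeq. Replicate numbers were not taken to pair hearts, since correlations of deviations exceeded 0.1 in 4 of 18 pairs. The members and gene lists were chosen with earlier results of these data known. Named genes were the members, Fabp3, the 5 pathway genes of lowest p for the mean TAC effect and the 3 for the mean genotype effect (since none was called), and the 3 genes most correlated with each member. Cell type marker lists were read beside them.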

Additional observations from a re-analysis of the deposited data

Results flagged for a closer look

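For Ckm, Ckmt2 and Ak1 every F3-KO sham heart lay above the WT sham mean and every F3-KO TAC heart lay below the WT TAC mean. After sham the lowest F3-KO heart barely did so for Ak1 (498.8 against 498.4 CPM) and Ckmt2 (2334 against 2325 CPM). Without WT sham heart 2 these sham effects were -0.061 and -0.014. The difference itself was then tested with the interaction term of edgeR, in the same hearts that showed the pattern. The genotype effect on Ckm after TAC minus that after sham was -0.70 on the log2 scale (unadjusted p = 0.0290, adjusted p = 0.954, edgeR). For Ckmt2 the same difference was -0.43 (unadjusted p = 0.130, adjusted p = 0.954, edgeR), and it equals the TAC effect in F3-KO hearts minus that in WT hearts, where every WT TAC heart lay above the WT sham mean and every F3-KO TAC heart below the F3-KO sham mean. For Ak1 it was -0.38 (unadjusted p = 0.212, adjusted p = 0.954, edgeR). None of these differences passed the adjustment over all genes.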

How the results depend on the processing

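Of 959 recomputed log2 fold changes of the 7 genes (49 values, of which 28 could also be fitted with only the libraries compared), 923 kept their direction and their side of the threshold, 32 changed sign and 4 passed the threshold where the main value had not. Those 4 were Ckm for TAC in F3-KO hearts by DESeq2 (-0.60), Ckb for genotype after sham with only the libraries compared (0.93), and Ckb for the mean genotype effect by DESeq2 (0.73) and without F3-KO TAC heart 3 (0.89, in a range of 0.61 to 0.89 when hearts were left out). The sign of Ckb for TAC in F3-KO hearts, 0.0018, became -0.0082 by DESeq2, -0.0074 with DESeq2 size factors, -0.0036 with no filter, -0.092 by limma-trend and -0.054 with the replicate block, and ran from -0.24 to 0.31 when hearts were left out. The interaction of Slc25a5 became 0.10 with library totals alone and ran from -0.099 to 0.011. Leaving out hearts also turned the sign for TAC in WT hearts of Ckm (-0.089 to 0.24), Slc25a4 (-0.23 to 0.14) and Ak1 (-0.16 to 0.16), for TAC in F3-KO hearts of Slc25a5 (-0.015 to 0.057), for genotype after sham of Ckmt2 (-0.014 to 0.21), Slc6a8 (-0.19 to 0.098) and Ak1 (-0.061 to 0.19), for the mean TAC effect of Ckmt2 (-0.10 to 0.029) and Slc6a8 (-0.10 to 0.041), and for the mean genotype effect of Ckm (-0.011 to 0.15). The cause was not tested.

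Counts of genes called moved more. In the order TAC in WT hearts, TAC in F3-KO hearts, genotype after sham, genotype after TAC, interaction, mean TAC and mean genotype effect, edgeR called 0, 0, 15, 11, 0, 11 and 58 genes, DESeq2 called 27, 443, 105, 101, 6, 656 and 217, and an unadjusted p of at most 0.05 from edgeR was reached by 885, 2412, 849, 1410, 632, 2513 and 1425. With hearts left out these ranged from 0 to 1, 0 to 778, 2 to 23, 6 to 103, 0 to 4, 0 to 849 and 30 to 125, and the highest counts for TAC in F3-KO hearts, genotype after TAC and both mean effects came without F3-KO TAC heart 3. For TAC in WT hearts 1 gene was called with no filter, with at least 10 counts in every library, by limma-trend and with the replicate block. For TAC in F3-KO hearts it was 2 with library totals, 7 with no filter, 6 with at least 10 counts, 8 by limma-trend and 1 with only the libraries compared. For genotype after sham it was 9 with library totals, 25 by limma-trend, 8 with the replicate block and 56 with only the libraries compared. For genotype after TAC it was 17 with no filter and 0 with only the libraries compared. For the interaction it was 1 by limma-trend, and for the mean TAC effect 23 with no filter and 36 with at least 10 counts. Same-numbered hearts did not deviate together in general (r from -0.14 to 0.36, 6 of 12 hearts best with their own number), and the replicate block changed no call of a member. The highest r, 0.36, was that of WT TAC heart 3 with F3-KO TAC heart 3. The first and second hearts of these groups had 0.17 and 0.061. Ckb had the lowest counts of the 7 genes, 259 to 1006 per library.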
